A study of Danio rerio with 67 samples.

Results

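Expression of 6 genes of the Notch signalling pathway was followed through 67 single cells of the adult zebrafish spinal cord, 32 cells from lesioned cords and 35 from sham-operated cords. The 6 genes, of 32266 in the count table, are the Delta ligand genes DLL1 (ENSDARG00000010791) and dlb, the Fringe glycosyltransferase gene LFNG, and the hes/her genes HES6 (ENSDARG00000019335), her4.1 and her15.1. They were chosen by their CPM (reads of the gene scaled to all reads on genes of the cell or group) in these same lesion and sham cells and by how many cells held them, so the differences between the groups below are a description and carry no test. DLL1 and HES6 are the human spellings under which the gene name table lists these IDs, and each also names another zebrafish gene, which is given by its ID where it is used.

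Notch signalling runs between touching cells. A Delta or Jagged ligand on one cell binds a Notch receptor on its neighbour, the receptor is cut by ADAM proteases and gamma-secretase, and its freed intracellular part enters the nucleus and acts with RBPJ on target genes, of which the hes/her genes, coding for basic helix-loop-helix repressors, are the best known. In the developing vertebrate nervous system, cells that begin to form neurons carry Delta while their neighbours carry hes/her genes and stay progenitors, and in the zebrafish cord the olig2-expressing progenitors give rise to motor neurons and oligodendrocytes.

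All cells came from Tg(olig2:eGFP) fish, in which olig2 regulatory sequence makes cells green, so every living cell with an active transgene could be sorted, not 1 cell type. The lesion cells were taken 7 days after the cord had been cut 5 mm behind the brainstem, from the 0.5 mm piece just rostral to the cut, and the sham cells were taken at the matching level of cords left intact. Each group was 1 pool of 9 cords, so the cells of a group are not replicates of the operation, and no standard error or p-value is given. Lesion cells filled plate columns 7 to 12 and sham cells plate columns 1 to 6, so operation, pool and plate side cannot be told apart.

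The median depth on genes was 431348 reads in lesion cells (280129 to 620323) and 550763 reads in sham cells (245408 to 771417), and the median number of genes with a read was 2965 in lesion and 2256 in sham cells. The labels call the cells oligodendrocyte progenitor cells (OPCs). All 67 had olig2 reads. Of the 10 OPC markers measured, olig2 among them, each lesion cell carried 1 to 6 and each sham cell 1 to 5. With 5 or more reads, olig1 was present in 11 lesion and 15 sham cells, and GPR17 in 2 and 1. PDGFRA and nkx2.2b had no read in any cell. The myelin gene plp1b split the cells cleanly. The highest cell under 10000 CPM stood at 614 CPM and the lowest cell above it at 19557 CPM. Under 10000 CPM were 15 of 32 lesion and 6 of 35 sham cells, called low-plp1b below, and the other 17 lesion and 29 sham cells, called high-plp1b, carried 6 to 11 of 11 oligodendrocyte markers.

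Some wells held reads of other wells, and this touches the members. For each of 59 cells with at least 20 private genes, meaning genes with 100 or more reads in that cell and 5 or more reads in at most 4 cells, the share of these genes found in each other well was counted over 3894 ordered pairs of wells. The median was 4.88%. In 16 pairs it was 50% or more, and all 16 lay in 1 plate row in neighbouring columns or in 1 plate column. Some crossed the groups: lesion wells C07, D07, E07, F07 and G07 held 75.8% to 88.5% of the private genes of sham wells C06, D06, E06, F06 and G06. These were at 0.563% to 1.11% of the sham reads. The sham wells had no read of a member apart from 1 of LFNG in G06. The part of such traces in plp1b and oligodendrocyte marker reads of these lesion wells was not tested. Lesion well G12 was the clearest source: 40 of its 40 private genes were found in lesion well E12, at 18.3% of their G12 reads, and 39 of 40 in lesion well D12, at 2.2%. The reads of the 6 members in E12 were 11.9% to 28.3% of those in G12, against 13.4% to 22.7% for the private genes (percentile 10 to 90), and those in D12 were 2.63% to 3.95%, against 0.886% to 3.94%. Sham well F03 likewise held 102 of the 103 private genes of its neighbour F04, with her15.1 at 3.59% of the F04 reads, against 1.49% to 5.01%. E12 also held 126 private genes of its own, of which 116 had no read in G12. Shares of cells with a member are therefore given with and without D12, E12 and F03, while counts of cells with other genes include these wells.

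**Figure D1:**
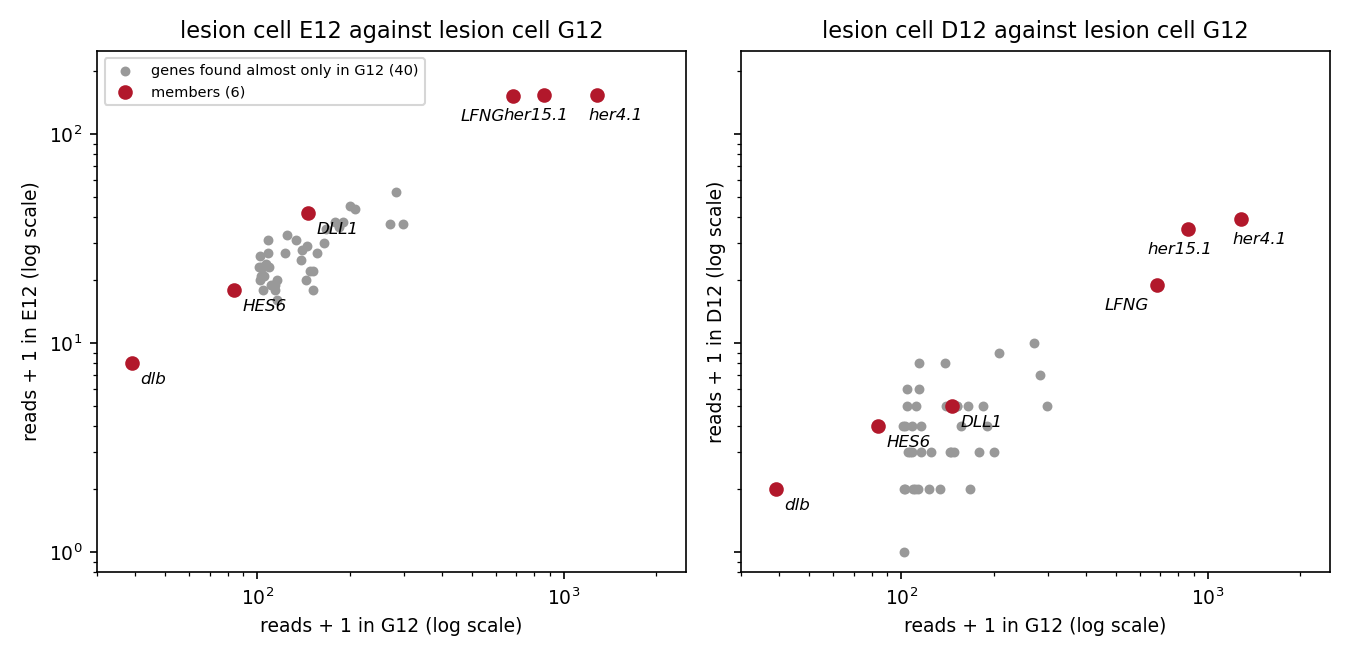
Reads of the 40 private genes of lesion well G12 (grey) and of the 6 members (red) in lesion wells E12 (left) and D12 (right) against their reads in G12, both axes logarithmic after adding 1 read. The members lie along the same diagonal as the private genes in both panels, between 11.9% and 28.3% of the G12 reads in E12 and between 2.63% and 3.95% in D12. In E12, her4.1 lies under and DLL1 above the percentile 10 to 90 range of the private genes.

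The Delta genes DLL1 and dlb were found in the same 5 lesion cells and in no sham cell. Detection in a cell means that it had at least 5 reads of the gene. DLL1 lies at chr1:53353714-53366437 (GRCz10, plus strand) and dlb at chr5:36093706-36101607 (plus strand), so the pair are separate loci. DLL1 shares 339 exon bases with an antisense gene that had no read. Over the 32 lesion cells DLL1 ran from 0 through a median of 0 to 1506 CPM, and over the 35 sham cells it had 0 reads. Over the lesion cells dlb ran from 0 through a median of 0 to 3674 CPM, and it too had 0 reads in the 35 sham cells. The 5 of 32 lesion cells are 15.6% (exact binomial 95% interval 5.28% to 32.8%), and 0 of 35 sham cells allows a share of up to 10.0%. These intervals overlap. Intervals of shares, here and below, treat cells as independent draws and do not cover differences between fish or pools. Whether they overlap is therefore no test of lesion against sham. Without D12, E12 and F03 it was 4 of 30 lesion and 0 of 34 sham cells.

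Summed over cells, DLL1 stood at 99.6 CPM in lesion cells (Poisson 95% interval 94.4 to 105) and at 0 in sham cells, and set against 3 reads over the sham group it was at least 622-fold higher in lesion cells. dlb stood at 286 CPM in lesion cells (277 to 295) and at 0 in sham cells, at least 1784-fold higher by the same bound. These intervals and bounds cover counting error only. The sums rest on a few cells. Without E07 alone the lesion sum was 62.6 CPM for DLL1 and 143 CPM for dlb, and without E07, F09 and H11 the log2 ratio of dlb was 2.24 in place of 8.16 and that of DLL1 4.03 in place of 6.65, after adding 1 CPM to each group. In such sums, fewer cells with a gene and less RNA per cell cannot be told apart, and here the sham sum had no read at all.

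The cells that held ligand were all low-plp1b, 5 of 15 lesion cells (33.3%, 11.8% to 61.6%) against 0 of 6 sham cells, and 0 of 6 allows up to 45.9%. Without E12 and F03 these were 4 of 14 and 0 of 5. Cell by cell, E07 had 977 CPM of DLL1 and 3674 CPM of dlb, F09 had 1506 and 2047 CPM, and H11 had 433 and 2916 CPM. G12 had 464 CPM of DLL1 and 122 CPM of dlb, and E12, with the traces of G12, 89.4 and 15.3 CPM. The 2 genes were therefore present together, with read proportions that were not the same in each cell. For each DLL1 read there were 6.73 dlb reads in H11 (5.75 to 7.92), 3.76 in E07 (3.42 to 4.14), 1.36 in F09 (1.20 to 1.54) and 0.262 in G12 (0.178 to 0.377), and none of these 4 intervals overlap. E12 had 0.171 (0.0646 to 0.384), an interval that overlaps that of G12. These intervals cover counting error only, and reads are not independent molecules. They do not show that the RNA of the 2 genes differed in proportion between cells. D12 held 4 reads of DLL1 and 1 read of dlb, the only reads of the pair in any high-plp1b cell of either group.

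The ligand cells carried genes of young neurons and, like other low-plp1b cells of both groups, of ependymo-radial glia. E12 is among the 5 and holds traces of G12, so its counts are not fully separate from those of G12. Of 25 proneural and early neuron genes, 8 to 17 were detected in each ligand cell (median 13), against 1 to 4 (median 1) in the 7 low-plp1b lesion cells with neither ligand nor her gene and 1 to 4 in each sham cell. Of 20 neuron markers 3 to 12 were detected, with a summed level of 157 to 17782 CPM (median 10822), against 3 to 8 markers and 1177 to 7968 CPM (median 2907) in the cells with neither. Both lists hold ISL1 and MNX1. Of 12 ependymo-radial glia markers, a list that holds her4.1, the ligand cells had 3 to 9 (median 6) with a summed level of 2217 to 15290 CPM (median 3723), against 2 to 4 (median 3) and 2083 to 11734 CPM (median 7535) in the cells with neither. The 3 low-plp1b lesion cells with her and without ligand had 2 to 9 markers and 3640 to 31474 CPM. The 6 low-plp1b sham cells had 2 to 5 markers and 1861 to 11839 CPM (median 4930). FABP7, VIM and foxj1b, of the same list, had no read in any low-plp1b lesion cell, the ligand cells among them. The motor neuron genes ISL1 and MNX1 were present together in E07, F09 and H11, at 1130, 1453 and 1273 CPM of ISL1 and 224, 778 and 197 CPM of MNX1. Both were at 0 in G12 and E12. The OPC genes olig1, GPR17 and CSPG4 had no read in the 5 ligand cells, and 0 to 7 of 11 oligodendrocyte markers were detected. Among these cells, E07 held traces of the high-plp1b sham well E06. The ligand cells had 2916 to 5140 genes with a read (median 4168), against 1527 to 4767 (median 2644) in the low-plp1b lesion cells with neither; the part of this in the result was not tested.

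**Figure D2:**
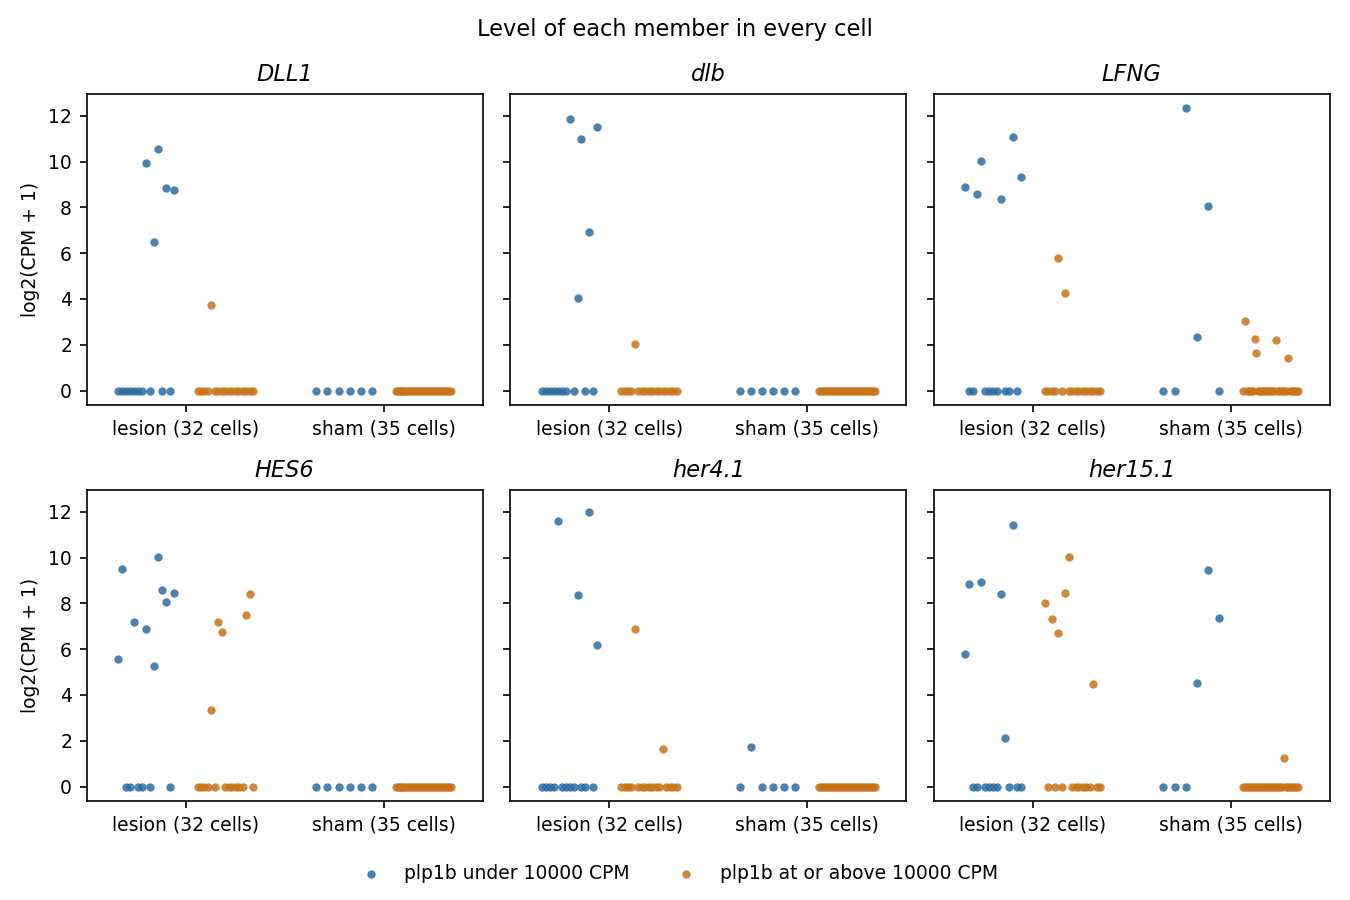
Level of each member, as log2(CPM + 1), in each of 32 lesion cells (left) and 35 sham cells (right), with low-plp1b cells in blue and high-plp1b cells in orange; horizontal spread only separates the points. DLL1, dlb and HES6 have no point above 0 among sham cells, LFNG has its highest point in a sham cell, and her15.1 is the member with the most high-plp1b lesion cells above 0.

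LFNG, the Lunatic Fringe enzyme that adds a sugar to the Notch receptor and so changes which ligands activate it, did not follow the Delta genes. It lies at chr3:41775641-41785011 (plus strand). It was detected in 8 of 32 lesion cells (25%, 11.5% to 43.4%) and 2 of 35 sham cells (5.71%, 0.700% to 19.2%), or 6 of 30 and 2 of 34 without D12, E12 and F03. Over the lesion cells it ran from 0 through a median of 0 to 2180 CPM, and over the sham cells from 0 through a median of 0 to 5238 CPM. The sham cell E03 with 5238 CPM held the highest level of any cell and nearly all LFNG reads of its group, and the other sham cell above 5 reads was F04 with 265 CPM.

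Because of E03 the summed level gave the opposite picture to the count of cells, with 135 CPM in lesion cells (129 to 142) and 192 CPM in sham cells (185 to 198), a log2 ratio of -0.50. The mean of the per-cell values was 160 CPM in lesion cells and 158 CPM in sham cells (log2 ratio 0.018), and without the highest cell of each group the log2 ratio was 3.50. No direction of LFNG between the groups is therefore given. Among lesion cells the highest levels were 2180 CPM in G12, 1027 in C12, 650 in H11, 472 in C07, 386 in C10 and 329 in E12, all low-plp1b. LFNG was present in all 5 cells with her4.1 and in 3 of the 5 ligand cells, and absent from the ligand cells E07 and F09. These counts include E12 and D12, whose LFNG reads, 22.2% and 2.64% of those in G12, lie on its trace. They are therefore not separate from G12, and E12 is also among the 3 ligand cells.

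HES6 was the member found in the most lesion cells, and it was found in no sham cell. In mouse the Hes6 protein is known to oppose Hes1 and to favour the formation of neurons, unlike most of its family. HES6 lies at chr2:48434297-48450532 (plus strand), and ITM2C lies on the other strand within its span but shares no exon base with it. It was detected in 13 of 32 lesion cells (40.6%, 23.7% to 59.4%) and 0 of 35 sham cells, where it had no read at all, or 12 of 30 and 0 of 34 without D12, E12 and F03. Over the lesion cells it ran from 0 through a median of 0 to 1029 CPM. The sum was 115 CPM in lesion cells (110 to 121) and 0 in sham cells, at least 719-fold higher in lesion cells.

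HES6 crossed the divisions that the other members drew. It was present in all 5 ligand cells, with 1029 CPM in F09, 349 in H11, 266 in G12, 116 in E07 and 37.1 in E12. It was present in the 3 low-plp1b lesion cells with a her gene but no ligand, at 718 CPM in C08, 144 in C12 and 46.7 in C07. In G11, with 387 CPM, it was the only member, and of the 7 low-plp1b lesion cells with neither ligand nor her gene this was the only one that held it. A further 4 lesion cells, all high-plp1b, held it as well, H09 with 343 CPM, H08 with 178, E11 with 143 and F07 with 107, none of which is D12 or E12. The share was thus 9 of 15 low-plp1b and 4 of 17 high-plp1b lesion cells, against 0 of 6 and 0 of 29 sham cells, and 8 of 14 of the low-plp1b lesion cells without E12. The second gene spelled HES6, ENSDARG00000007097, had 13 reads, all in 1 lesion cell, and is not part of these counts.

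The gene her4.1, a target of Notch in zebrafish neural progenitors and the counterpart of mouse Hes5, was concentrated in a pair of cells. It lies at chr23:21526006-21527063 (minus strand), at the head of a row of near-identical copies, her4.2 to her4.5, that ends at position 21544507. her4.2 and her4.3 share 521 exon bases and her4.4 and her4.5 share 107, and reads that fit several copies were not counted, so the values of single copies are uncertain. Over lesion cells her4.1 ran from 0 through a median of 0 to 4103 CPM, and over sham cells from 0 through 0 to 2.27 CPM, which was 1 read in cell C05. It was detected in 5 of 32 lesion cells and in 0 of 35 sham cells. The sum was 201 CPM in lesion cells (194 to 209) and 0.0534 CPM in sham cells. Without an added CPM this is a 3771-fold ratio with a counting interval of 676 to 149014. After adding 1 CPM to each group the log2 ratio was 7.59. Without G12 the lesion sum was 110 CPM. These counts and the ratio are for her4.1 alone. On her4.1 to her4.5 together, sham cell C05 had 73 reads (166 CPM). Lesion cell H11, which counts as holding her4.1, had 67 reads on them (161 CPM).

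G12 with 4103 CPM and C12 with 3106 CPM held most of it, followed by E12 with 332, D12 with 116 and H11 with 72.2 CPM. Reads of her4.1 in E12 were 11.9% of those in G12, under the 13.4% to 22.7% (percentile 10 to 90) of its private genes. In D12 they were 2.96%, within 0.886% to 3.94%. Without these wells, 3 of 30 lesion cells held her4.1. By reads, the mix of copies differed between the cells. The intervals below cover counting error only, and reads are not independent molecules. her4.1 made up 90.4% of the reads on her4.1 to her4.5 in C12 (88.7% to 91.9%), 44.8% in H11 (32.6% to 57.4%) and 17.6% in G12 (16.8% to 18.5%). In sham cell C05 it made up 1.37% (0.0347% to 7.40%). E12 with 16.4% (14% to 18.9%) and D12 with 18.7% (13.6% to 24.8%) had intervals that hold the share of G12. This covers her4.1 alone. In E12, her4.4 reads were 15.9% of those in G12, within the 13.4% to 22.7% of the private genes. Those of her4.1, her4.2, her4.3 and her4.5 were 11.5% to 12.3%, under that range. Only 3 of the 40 private genes of G12 were found in H11 and 14 of 40 in C12.

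The gene her15.1, of the same Hes5 group, was the member found in the most cells, 14, and in the most high-plp1b cells, 6. It lies at chr11:41370256-41371807 (plus strand) inside the span of its near-identical copy her15.2 on the minus strand, without a shared exon base. Reads that fit both copies were not counted, so the values of each copy are uncertain. It was detected in 11 of 32 lesion cells (34.4%, 18.6% to 53.2%) and in 3 of 35 sham cells (8.57%, 1.80% to 23.1%), or 9 of 30 and 2 of 34 without D12, E12 and F03. Over lesion cells it ran from 0 through a median of 0 to 2753 CPM, and over sham cells from 0 through a median of 0 to 711 CPM. The sum was 177 CPM in lesion cells (170 to 184) and 19.1 CPM in sham cells (17.2 to 21.2), 9.27-fold higher in lesion cells with a counting interval of 8.29 to 10.4. Single cells set the size of this ratio: F04 held 306 of the 358 sham reads, and without it the sham sum was 2.84 CPM and the ratio 62.4-fold, while without G12 the lesion sum was 117 CPM and the ratio 6.12-fold. The groups overlapped, since sham cell F04 with 711 CPM stood above 9 of the 11 lesion cells that held it.

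Within low-plp1b cells the her15.1 sums rested on 1 cell in each group. Among lesion cells G12 had 2753 CPM, C12 495, C08 461, E12 334 and C07 53.8 CPM, and among sham cells F04 had 711, G03 163 and F03, with the trace of F04, 22.3 CPM. The sums were 236 CPM in lesion and 139 CPM in sham cells (log2 ratio 0.77). Without G12 the lesion sum was 101 CPM, under that of the sham cells (log2 ratio -0.45), and without F04 the sham sum was 23.8 CPM (log2 ratio 3.26), so no direction is given. The gene was held by 5 of 15 lesion and 3 of 6 sham cells, or 4 of 14 and 2 of 5 without E12 and F03. Within high-plp1b cells all cells with the gene were lesion cells. F07 had 1049 CPM, E11 350, B08 261, D09 156, D12 104 and H08 21.6 CPM, against 1 read over 29 sham cells. The sums there were 129 CPM in lesion cells and 0.0619 CPM in sham cells. Without F07 the lesion sum was 51.3 CPM, and without D12 130 CPM. The copy her15.2 followed, at 81.0 CPM in high-plp1b lesion cells and 0.124 CPM in high-plp1b sham cells, detected in 5 of the 6 lesion cells with her15.1.

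**Figure D3:**
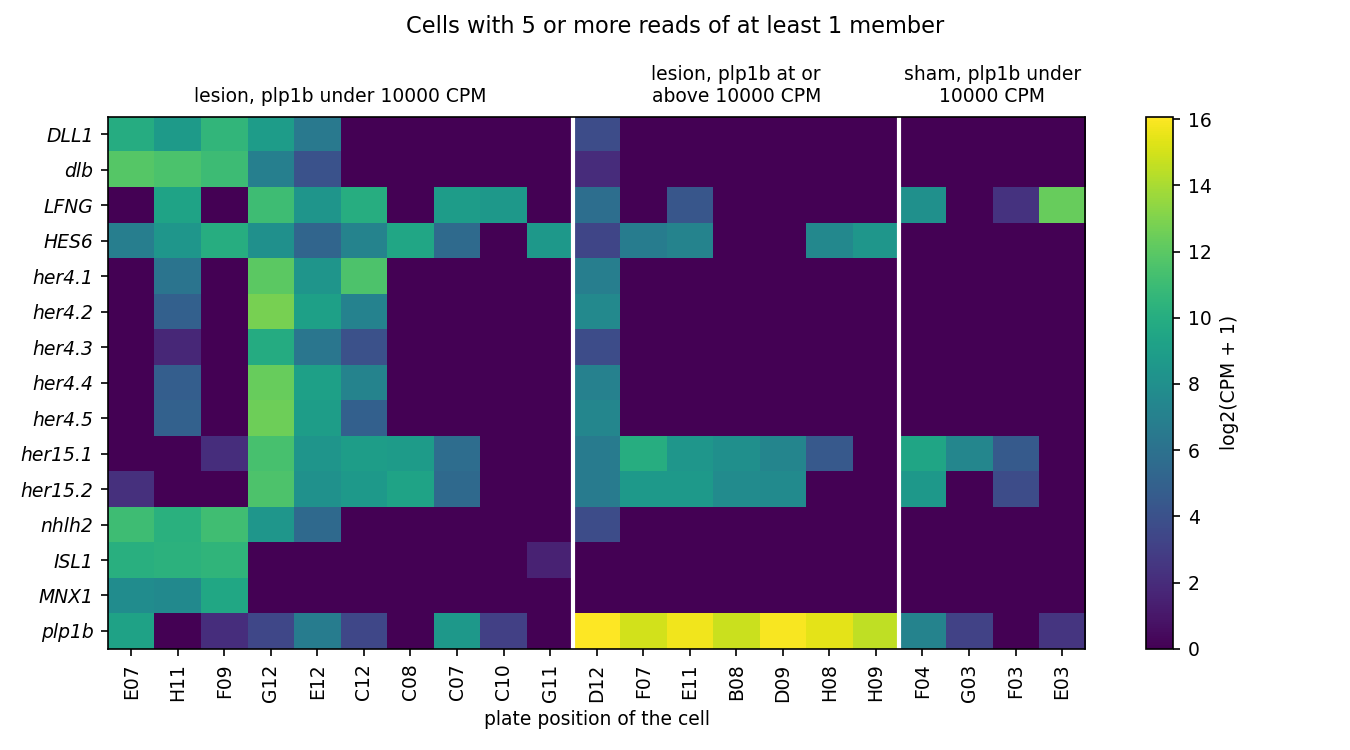
Levels as log2(CPM + 1) (colour) of the members, of the her4 and her15 copies, of nhlh2, ISL1, MNX1 and of plp1b (rows) in every cell with 5 or more reads of at least 1 member (columns, named by plate position), lesion cells at left and sham cells at right. The ligand cells E07, H11 and F09 carry ISL1 and MNX1 and little or no her15.1, while 6 of the 7 high-plp1b lesion cells shown carry her15.1.

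Taking the members together, 17 of 32 lesion cells held at least 1 of them (53.1%, 34.7% to 70.9%) against 4 of 35 sham cells (11.4%, 3.20% to 26.7%), or 15 of 30 and 3 of 34 without D12, E12 and F03. By summed level, lesion cells had 2-fold or more of the sham level for 5 of the 6 members, and a fall of 2-fold or more for none; the choice of members fixed this, and nothing is read from it. Over all 11201 genes with 5 CPM or more in a group, 36.1% were 2-fold or more higher in lesion cells and 24.2% were 2-fold or more lower. Among low-plp1b cells 50% of 10619 genes were higher by this measure and 27.5% lower, against 4 and 1 of the 6 members. The 1 that was lower, LFNG, was so through E03, with a log2 ratio of -2.22 and, without that cell, 2.27. Among high-plp1b cells 30.2% of 9180 genes were higher and 31.9% lower. The 3 members with enough reads there, HES6, her4.1 and her15.1, all reached 5 CPM in lesion cells alone and so were higher there, with her4.1 at 0.139 CPM in lesion cells once D12 was left out.

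Ligand and her genes were found together in 3 of the 5 lesion cells with ligand and in 3 of the 12 with her. Counting DLL1 or dlb as ligand and her4.1 or her15.1 as her, 5 of 32 lesion cells held ligand, 12 held her (37.5%, 21.1% to 56.3%), 3 held both, 2 held ligand alone, 9 held her alone and 18 held neither. Among sham cells 0 of 35 held ligand, 3 held her (8.57%, 1.80% to 23.1%) and 32 held neither. Sham cell C05, with 1 read of her4.1 and more on other her4 copies, is among these 32. The 3 lesion cells with both were G12, E12 and H11, and without D12, E12 and F03 the counts were 4 with ligand, 10 with her and 2 with both of 30 lesion cells, and 2 with her of 34 sham cells. G12 and H11 leaned opposite ways: G12 had 4103 CPM of her4.1 beside 464 CPM of DLL1, and H11 had 72.2 CPM of her4.1, no her15.1 and 2916 CPM of dlb. E07 had no read of her4.1 or her15.1, and F09 had 1 read of her15.1. Both E07 and F09 held HES6, at 116 and 1029 CPM, which is not counted as her here. With so few cells these counts describe the cells and show no rule of exclusion. They also depend on the genes counted. Counting all listed ligand and hes and her genes, 17 of 32 lesion cells held ligand, 21 held her and 16 held both. Among the 35 sham cells these were 8, 12 and 4. With each cell thinned to 301650 reads, the counts were 4 with ligand and 12 with her of 29 lesion cells, and 0 and 2 of 31 sham cells.

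**Figure D4:**
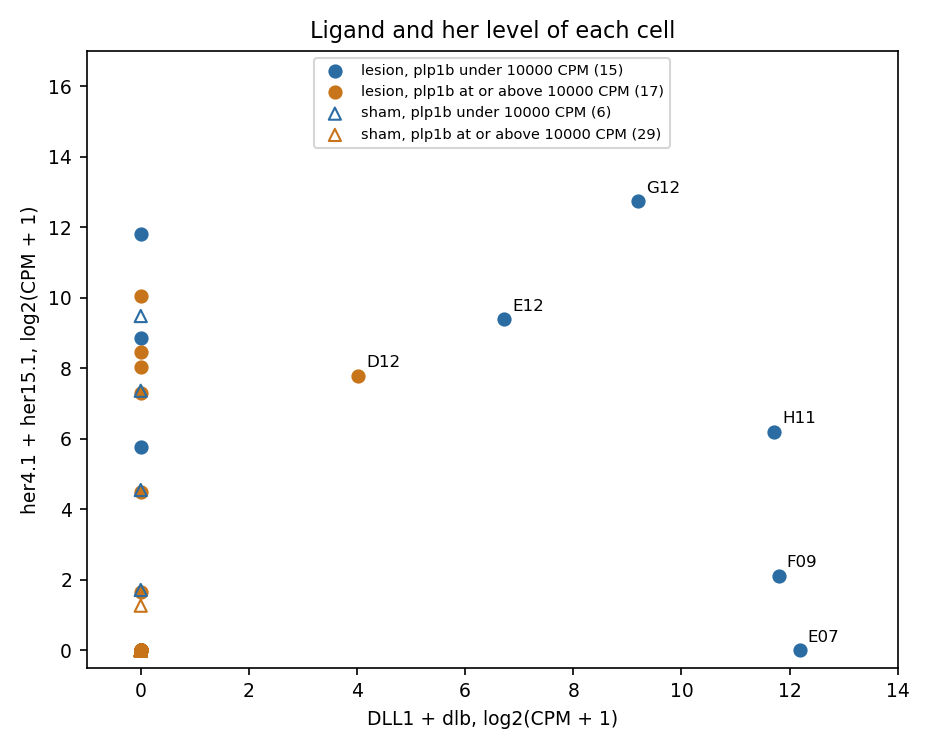
Summed level of her4.1 and her15.1 (vertical) against that of DLL1 and dlb (horizontal), both log2(CPM + 1), for 32 lesion cells (filled circles) and 35 sham cells (open triangles), coloured by plp1b level, with the cells that had any ligand read named by plate position. The cells with the most ligand, E07 and F09, lie at the bottom right, all sham cells lie at no ligand, and E12 and D12 lie between the axis and G12.

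Divided by plp1b, her was held by 6 of 15 low-plp1b lesion cells (40%, 16.3% to 67.7%) and 3 of 6 low-plp1b sham cells (50%, 11.8% to 88.2%), or 5 of 14 and 2 of 5 without E12 and F03, and the intervals of the shares overlap over most of their length. In high-plp1b cells it was held by 6 of 17 lesion cells (35.3%, 14.2% to 61.7%) and 0 of 29 sham cells (up to 11.9%), or 5 of 16 and 0 of 29 without D12. Thinned to one depth these were 6 of 17 and 0 of 26. Among the low-plp1b sham cells, C05 held other her4 copies and is not counted as her. Among high-plp1b cells the share with her was thus higher in lesion than in sham cells, with 1 pool per group and no test of that contrast. Among low-plp1b cells, with 6 sham cells, no direction is given. The shares cover her4.1 and her15.1 alone, and high-plp1b sham cells did hold HES4, as given below. The 6 high-plp1b lesion cells with her carried 7 to 11 of 11 oligodendrocyte markers, summing to 123902 to 194183 CPM. They had 2084 to 5064 genes with a read (median 3711), against a median of 2875 over all high-plp1b lesion cells and 2154 over high-plp1b sham cells.

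Other cell type markers differed between high-plp1b lesion and sham cells beside her15.1. Of 12 microglia and macrophage markers, 1 to 2 were detected in each of the 17 lesion cells and 0 to 2 in each of the 29 sham cells. The summed level was 846 to 30933 CPM in lesion cells (median 4082) and 0 to 3051 CPM in sham cells (median 485). Nearly all of it was apoeb, an apolipoprotein gene that glia express as well, at 8634 CPM in lesion and 547 CPM in sham cells. Of the other markers on the list, csf1ra, P2RY12, LCP1, cd74a and havcr1 had no read in either. CORO1A, csf1rb, ctss2.1 and ptprc had reads in high-plp1b sham cells but none in high-plp1b lesion cells. apoc1 had reads in the lesion cells alone, and cd74b in both. apoeb did not separate the lesion cells by her, with a summed level of 9423 CPM in the 6 cells with her and 8239 CPM in the 11 without. Of 12 ependymo-radial glia markers, a list that holds her4.1, 2 to 6 were detected in the 6 cells with her, D12 among them. Their summed levels were 1334 to 3795 CPM. Over all 17 high-plp1b lesion cells 1 to 6 were detected, at 559 to 4777 CPM, so the highest level was in a cell without her. High-plp1b sham cells had 0 to 5 markers and 0 to 2487 CPM. The part of either marker list in the result was not tested.

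The low-plp1b lesion cells with her and without ligand, C07, C08 and C12, differed among themselves. Their ependymo-radial glia markers summed to between 3640 and 31474 CPM, with 2 to 9 of 12 detected, while 1 to 8 of 11 oligodendrocyte markers, 3 to 4 of 10 OPC markers and 2 to 5 of 20 neuron markers were detected. C07 held traces of the high-plp1b sham well C06. No name is given to these 3 cells.

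The rest of the pathway was described from lists of its parts, and the counts below stand beside the 36.1% of all genes that were 2-fold or more higher in lesion cells and the 24.2% that were lower. A gene entered through 5 CPM or more in either group, so one that did so in lesion cells alone was bound to be higher there. Of 6 ligand genes with 5 CPM or more in a group, 5 were higher by 2-fold or more in lesion cells and none lower, with a median log2 ratio of 4.82, against 0.28 for all genes. Without the members it was 3 of 4. All 5 that were higher had reached 5 CPM in lesion cells alone, so the count gives no support for a direction. dlc, a further Delta gene, stood at 40.4 CPM in lesion and 0 in sham cells and was detected in the same 5 cells as DLL1 and dlb. jag2b, a Jagged gene, stood at 37.8 and 1.01 CPM and was detected in 7 lesion cells and 1 sham cell, 3 of them ligand cells. The gene spelled DLD, for a Delta ligand, stood at 83.3 CPM in lesion and 116 CPM in sham cells. It was detected in 11 and 7 cells, and was present in 1 of the 5 ligand cells only. Sham cell E03 had 919 CPM of it. In low-plp1b cells DLD stood at 75.4 CPM in lesion and 306 CPM in sham cells, and in high-plp1b cells at 89.6 and 86.0 CPM. No direction of DLD between the groups is therefore given. Ligand RNA was thus not absent from sham cells: counting all ligand genes on the list, 17 of 32 lesion and 8 of 35 sham cells held 1 or more.

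Of 3 receptor genes measured, 2 were higher by 2-fold or more in lesion cells. NOTCH3 had reached 5 CPM in lesion cells alone, and of the 2 NOTCH1 genes, which reached it in sham cells, 1 was higher. The count gives no support for a direction. Summed over the listed receptor genes, low-plp1b cells had 239 CPM in lesion and 221 CPM in sham cells. High-plp1b cells had 16.1 and 23.2 CPM. NOTCH3 stood at 33.5 CPM in lesion and 0.107 CPM in sham cells, and the gene spelled NOTCH1 with the ID ENSDARG00000103554 at 67.7 and 26.4 CPM. A second NOTCH1 gene, ENSDARG00000052094, stood at 14.3 and 23.8 CPM. Receptor and ligand RNA met in the same cells, since all 5 ligand cells held NOTCH1 ENSDARG00000103554, at 26.7 to 496 CPM. E12, with its traces of G12, is among the 5. The share of other low-plp1b cells with this gene is not given, so no trait of ligand cells is read from this. In the high-plp1b lesion cells with her this NOTCH1 gene was low, with a sum of 9.94 CPM over 6 cells, against 22.8 CPM over the 29 high-plp1b sham cells, and NOTCH3 was detected in none of them.

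Other lists held the general machinery. Of 11 genes that process ligands and receptors, LFNG among them, 0 were higher by 2-fold or more and 2 were lower, with a median of -0.28. adam10a, the protease gene, stood at 302 CPM in lesion and 366 CPM in sham cells, and MIB1, which activates ligands by ubiquitination, at 70.4 and 134 CPM. Lower in lesion cells were ADAM17, at 11.6 and 59.0 CPM, and the Notch inhibitor NUMB, at 0.439 and 21.4 CPM, which was detected in 0 lesion and 3 sham cells. Of 10 nuclear effectors 4 were higher and 3 lower, shares near those of all genes, with a median of -0.39. Of the 10, 3 had reached 5 CPM in lesion cells alone, and of the other 7, 1 was higher and 3 were lower. RBPJ (ENSDARG00000003398), the DNA-binding partner of the receptor, stood at 22.7 and 37.7 CPM, and SNW1, a coactivator, at 96.6 and 42.8 CPM. Both medians changed sign under other settings.

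Of 16 hes and her genes measured, 15 were higher by 2-fold or more in lesion cells and none lower, with a median of 3.62, and 12 of 13 without the members. Of the 16, 11 had reached 5 CPM in lesion cells alone. The other 5 were HES1, her12, HES4, her15.1 and her15.2, of which 4 were higher by 2-fold or more and HES4 was not. her4.2 stood at 191 CPM in lesion and 0.427 CPM in sham cells and her15.2 at 158 and 9.13 CPM, but these copies are not separate evidence beside her4.1 and her15.1. HES1 stood at 168 and 45.8 CPM and her12 at 114 and 23.8 CPM, both with their highest value in a ligand cell, and HES1 was detected in 4 lesion and 6 sham cells. HES4, the most abundant, stood at 286 and 248 CPM and was detected in 14 lesion and 11 sham cells. In high-plp1b cells 10 of these genes passed the filter, 9 of them in lesion cells alone, so no count is read from them. HES4, which passed in both groups, stood there at 426 CPM in lesion and 123 CPM in sham cells, detected in 9 of 17 and 6 of 29 cells, and 1 lesion cell reached 5029 CPM. Of the 10, her4.1, her4.2, her4.4, her4.5 and HES1 had at most 1 read in those lesion cells once D12 was left out. In low-plp1b cells HES4 went the other way, at 114 CPM in lesion and 1029 CPM in sham cells. When each gene's highest cell in each group was removed, 9 of the hes and her genes were higher by 2-fold or more. The 5 CPM filter was applied anew there, so this count cannot be set against the 16.

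**Figure D5:**
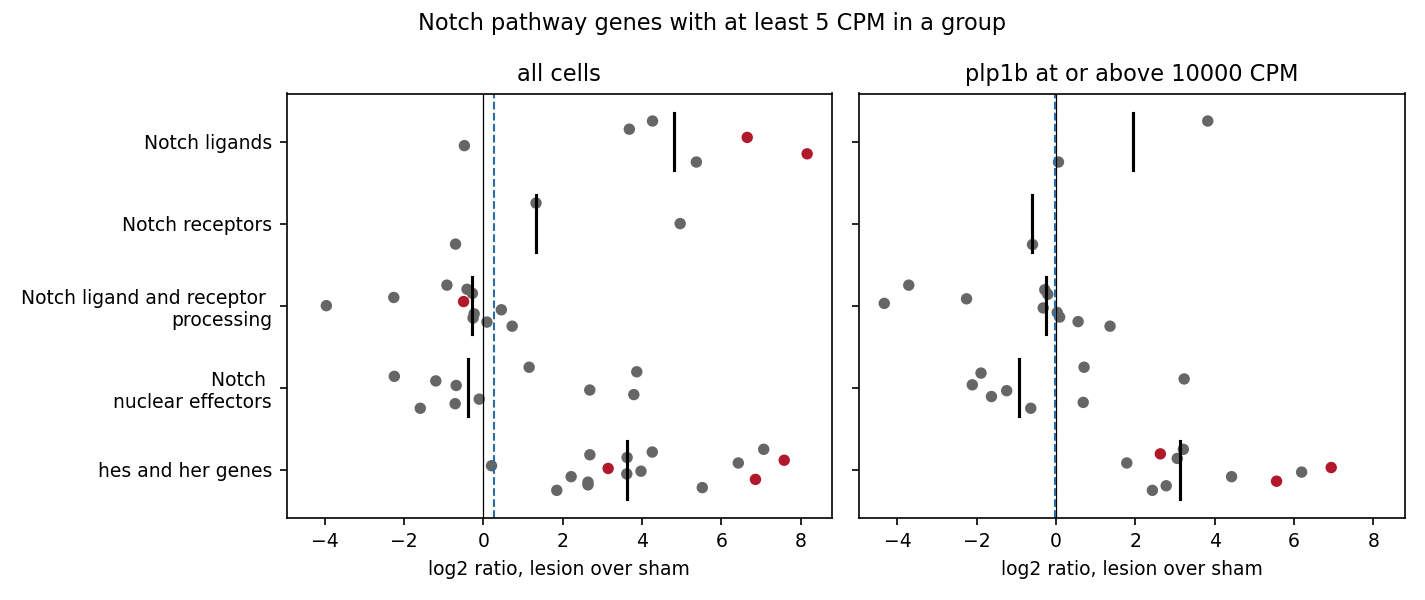
log2 ratio of lesion over sham for each gene with 5 CPM or more in a group (points, members in red) in 5 lists of the Notch pathway, over all cells (left) and over high-plp1b cells (right); black bars are list medians and the dashed line is the median of all genes. Points of the hes and her list lie right of 0, but 11 of 16 at left and 9 of 10 at right reached 5 CPM in lesion cells alone, and those of the processing and nuclear lists lie on both sides.

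Over the 67 cells, the genes whose level followed each member most closely, by Spearman correlation of log2(CPM + 1) among 6856 genes, were as follows. DLL1 was followed by dlc, nhlh2 and EBF2 (all 1.00 after rounding), and dlb by nhlh2, DLL1 and dlc (all 1.00). nhlh2 is a basic helix-loop-helix gene of young neurons, and was detected in the same 5 lesion cells. HES6 was followed by EPB41 (0.71), ENSDARG00000103982 (0.66) and cited4a (0.65), none of which was detected in a sham cell. LFNG was followed by TSHZ1 (0.64), FDPS (0.63) and NCK1 (0.63). her4.1 was followed by its copies her4.4, her4.2 and her4.5 (all 0.93), and her15.1 by its copy her15.2 (0.80), then KLHL15 (0.65) and DPM2 (0.61). These values describe the 67 cells, most of which share a value of 0, and D12 and E12 share reads with G12. Among the 21 low-plp1b cells alone, the first 3 genes were the same for DLL1 and her4.1, 2 of 3 were for dlb and 1 of 3 for LFNG, HES6 and her15.1.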

How the data were processed

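Each sample was 1 sorted cell, grouped by its treatment label, with the plate position from its title. The authors deposited a table of raw read counts per gene, 1 column per cell. The submitters' processing notes name bcl2fastq 2.19.1, GSNAP, the GRCz10 genome and featureCounts 1.6.2 (1.6.3 per the file headers). Per the file headers, genes were those of Ensembl release 87, the strand was ignored (-s 0), the quality limit was 1 (-Q 1) and reads at several places were not requested. Which library kit was used is not given in the sources used here. Without molecular identifiers, reads are not independent molecules.

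All 67 cells passed 10000 reads and 500 genes. The 92 spike-in sequences, with 71 reads in all, were left out of totals. Doublets were not called, since there are few cells. The counts of each group's cells were added up and scaled to CPM with exact 95% Poisson intervals, and shares of cells carry exact Clopper-Pearson intervals (scipy 1.17.1). Log2 ratios are log2(lesion CPM + 1) minus log2(sham CPM + 1), and counts of genes 2-fold or more higher or lower use them. Other fold values and bounds are plain ratios of CPM, without the added 1 CPM. Where sham cells had no read, the bound uses 3 reads over the group. Because each group was 1 pool, no test was made. The computation of the ratio was checked on Poisson counts drawn from the pooled profile of all cells, with changes of known size put in. Cells of a group did not differ in these counts, so the check cannot show how single cells move a ratio. Other scalings used edgeR 4.0.16 (TMM) and DESeq2 1.42.0 (size factors).

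The members and gene lists were chosen with earlier results of these data known. The omission of D12, E12 and F03 or of E07, F09 and H11, the omission of G12 or F04 and the alternatives for high-plp1b cells were added after seeing the data. Named genes were the members, list genes with 20 CPM or more in a group, and the 3 genes most like each member among those detected in 5 cells with a mean of 10 CPM or more. Coordinates are those of the count table, from 1. No sequence was used.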

Additional observations from a re-analysis of the deposited data

How the results depend on the processing

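Over 11 settings each, 63 of 66 log2 ratios of members kept their sign. DLL1, dlb and HES6 had 0 sham reads, so their ratios could not fall under 0 in any setting, and her4.1 had 1 sham read. The count of kept signs is therefore no support for a direction. They ran from 4.03 to 7.80 for DLL1, 2.24 to 9.32 for dlb, 4.59 to 7.65 for HES6, 5.35 to 8.32 for her4.1 and 0.77 to 7.08 for her15.1. LFNG, at -0.50, was 0.018 by the mean of per-cell CPM, 3.50 without the highest cells and 3.28 in plate rows F to H. TMM factors moved the median of all genes by -0.29 and DESeq2 size factors by -0.36. The her15.1 ratio in low-plp1b cells, 0.77, was -0.45 without G12, 3.26 without F04 and 2.05 without both. The median of the processing list became 0.065 without the highest cells and 0.048 in rows F to H. The median of the nuclear effectors became 0.74 without the highest cells, 2.31 in low-plp1b cells, 1.30 in rows F to H and 0.80 in rows B to E. Of 185 alternative counts and shares, 16 moved. The processing genes at least 2-fold higher, 0, were 1 without the highest cells, in rows B to E, without D12, E12 and F03, or with all genes with a read, 2 in rows F to H and 5 of 11 in low-plp1b cells. The nuclear effectors higher were 7 of 9 in low-plp1b cells and 1 with genes of at least 20 CPM, and the hes and her genes higher 9 without the highest cells. Of all genes, 50% were higher in low-plp1b cells. The filter was applied anew in each setting, so the genes counted can differ, and nothing is read from these counts. Counting all listed ligand and hes and her genes, ligand was held by 53.1% of lesion and 22.9% of sham cells, her by 65.6% and 34.3%, and both by 50% and 11.4%. No sham cell in rows B to E held her4.1 or her15.1 (0%). The cause of these shifts was not tested.

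No paired analysis was possible because each group was 1 pool and the cells carry plate positions, not replicate numbers. Leaving out a replicate could not be done for the same reason. With 5 to 13 cells holding most members, shares are known only within wide intervals, and 0 of 35 cells allows up to 10.0%.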
